A study of Mustela putorius furo with 8 samples.

Results

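The genes described here were a list of 44 gene symbols of the G2 phase and of mitosis. They were found by symbol in the gene rows of the deposited count matrices, and 43 of them were present among 27912 genes. HJURP was not listed under that symbol and was not analysed here. The libraries were single-cell RNA libraries of ferret pancreatic ductal epithelium (PDE), prepared with the 10x Genomics droplet method. Ductal cells of newborn ferrets, 1 to 3 days old, had been passaged 10 times on 804G-coated plastic to leave a uniform duct population, and passage 10 cells were then seeded on inserts and placed at an air-liquid interface (ALI). The 2 genotypes were WT and CFTR KO/KO (CF), in which CFTR, the chloride and bicarbonate channel of duct cells, was knocked out. Cultures of both genotypes were taken on day 2, 5, 7 and 9 at the ALI, 1 library for each genotype and day. Cells of 3 donors of a genotype were pooled and no cell was traced to a donor, so no value below has a replicate error and no p-value is given. WT and CF stand for the libraries labelled so.

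Cells that have copied their DNA pass through G2 and then mitosis, when the chromosomes condense, attach to the spindle and are pulled apart before the cell divides. Most genes of this phase are transcribed together in a wave that starts in late S phase, and many of their products are destroyed at the end of mitosis through the anaphase-promoting complex. The adult duct is a slowly renewing epithelium, while duct cells in culture divide until they become confluent and polarize. Most of these genes are near silent in resting cells.

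The summed level of the G2/M and mitosis genes was highest in both genotypes on day 2 and lower on each later day, and 37 of the 43 genes in WT and 38 in CF were themselves lower at every step. These counts go by sign alone, and some steps lay within counting error. The 95% interval of the ratio held 1 for 8 of the 43 genes on day 5 against day 2 in WT. In CF it did for 5 on day 7 against day 5 and for 15 on day 9 against day 7. How many of all genes were lower at every step was not counted. Levels are given as CPM, the unique molecular identifiers (UMIs) of a gene for each 1e+06 UMIs of a library. Summed over the 43 genes, the WT level was 1169 (95% interval 1163 to 1175), 998.6 (992 to 1005), 517 (512 to 522) and 239 (235 to 242) CPM on day 2, 5, 7 and 9. In CF it was 648 (643 to 653), 444 (439 to 449), 343 (337 to 349) and 302 (297 to 307) CPM. The WT libraries thus started higher, at 1.80 times (1.79 to 1.82) the CF level on day 2 and 2.25 times (2.22 to 2.28) on day 5, and ended lower, with CF at 1.27 times (1.24 to 1.29) WT on day 9. Most of that day 9 gap lay in CKS1B and SMC4, which together had 157 CPM in WT and 205 CPM in CF. The other 41 genes had 81.5 CPM in WT and 97.1 CPM in CF on that day. All intervals here are 95% intervals for counting error only, exact Poisson for a level, exact conditional binomial for a ratio and Clopper-Pearson for percentages of cells. They say nothing of the variation between animals or cultures. Those of levels and ratios take each UMI as independent, although many UMIs lay in few cells, so they leave out the sampling of cells.

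A pair of the genes stood apart. CKS1B and SMC4 together held 262, 246, 197 and 157 CPM in WT and 217, 190, 206 and 205 CPM in CF, which was between 22.4% and 67.9% of all UMIs of the 43 genes. The pair was set apart after the values had been seen. In WT the other 41 genes summed to 907 (901 to 912), 753 (747 to 758), 319.8 (316 to 324) and 81.5 (79.6 to 83.4) CPM. Their sum in CF was 431 (427 to 435), 254 (250.2 to 258), 137 (133 to 141) and 97.1 (94.4 to 99.9) CPM. Over the course these 41 genes were 11.1 times (10.9 to 11.4) lower in WT and 4.44 times (4.31 to 4.57) lower in CF. On day 5, where the genotypes were furthest apart, the 41 genes were 2.96 times (2.92 to 3.01) higher in WT.

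**Figure D1:**
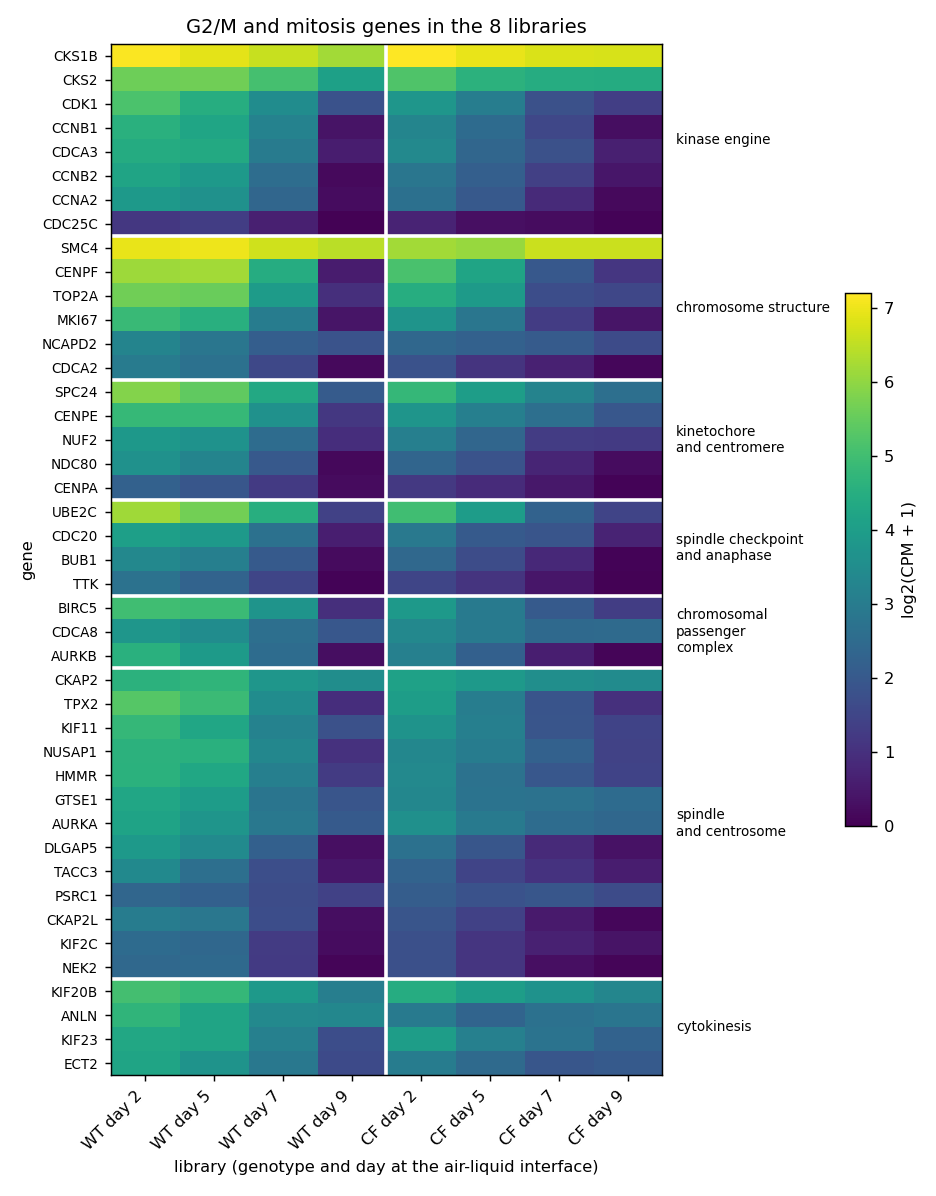
Level of each of the 43 genes (rows, grouped by role and ordered by mean level within a role) in the 8 libraries (columns), as log2(CPM + 1) on the colour scale. Nearly all rows darken from day 2 to day 9, earlier in CF than in WT, while the rows of CKS1B and SMC4 stay bright in every library.

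Depth and makeup of the libraries differed. The WT libraries held 4634 to 6224 retained cells and the CF libraries 1607 to 4499, with 34735952 to 114585136 UMIs in a library. The median cell held 14949 to 16862 UMIs in WT and 17833 to 23427 in CF, and its mitochondrial share was 6.63% to 10.7% in WT and 5.65% to 7.04% in CF. On day 7 of CF, 411 of 1607 cells held under 3000 UMIs, against 39 to 224 cells elsewhere. The libraries shared 148 cell barcodes, between 1 and 14 for a pair. CFTR, the targeted gene, had 6.57, 16.9, 15.9 and 29.5 CPM in WT and 2.50, 8.69, 11.1 and 11.4 CPM in CF, so its transcripts were counted in every library labelled CF, at a lower level than in WT on the same day. Counts of transcript ends do not show whether a transcript is intact, so this is no check of the knockout. Of the duct and epithelial markers, KRT19 had 3771.5 to 5113 CPM, KRT8 860.5 to 1541 CPM, EPCAM 88.5 to 189 CPM and SOX9 3.57 to 11.8 CPM over the 8 libraries. Summed fibroblast markers had at most 0.721 CPM in WT and 7.72, 0.140, 28.1 and 19.4 CPM in CF. Immune markers had 19.9 to 113.8 CPM, among which CD74 had 2.65 to 99.1 CPM, while PTPRC had at most 0.0198 CPM. Endothelial markers had at most 1.5, acinar enzymes at most 0.0839 and endocrine markers at most 0.112 CPM, with INS and GCG at 0. The part of these other cells in the results was not tested.

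The first role is the kinase engine of mitosis, CDK1 with the subunits and regulators that switch it on. CDK1, the kinase that drives entry into mitosis, had 34.7, 21.2, 10.2 and 2.54 CPM in WT and 12.7, 7.29, 2.42 and 1.5 CPM in CF, always in the order day 2, 5, 7 and 9. CCNB1, the cyclin that CDK1 needs for entry, had 22.7, 17.8, 8.15 and 0.295 CPM in WT and 8.58, 4.76, 1.90 and 0.200 CPM in CF. CCNB2, a second B-type cyclin, had 17.5, 13.6, 4.97 and 0.130 CPM in WT and 6.12, 3.53, 1.58 and 0.340 CPM in CF. In each of these 3 genes the WT day 2 library was the highest of the 8, each later day was lower in both genotypes, and CF was below WT on day 2, 5 and 7. From day 2 to day 9 CDK1 was 13.7-fold lower in WT and 8.45-fold lower in CF. CCNB1 was 77.1-fold lower in WT, with 25 UMIs left on day 9, and 42.9-fold lower in CF, with 10 UMIs left. CCNA2, the cyclin of S phase and G2, had 13.7, 11.5, 4.18 and 0.189 CPM in WT and 5.27, 2.99, 0.806 and 0.140 CPM in CF. CDCA3, which promotes mitotic entry through degradation of the inhibitory kinase WEE1, had 20.5, 19.6, 6.96 and 0.495 CPM in WT and 9.48, 4.17, 2.42 and 0.540 CPM in CF. Both followed the same course, with only 16 and 42 UMIs left in WT on day 9.

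The CKS proteins are small subunits that bind cyclin-dependent kinases. CKS2 had 47.7, 48.6, 32.5 and 15.9 CPM in WT and 35.8, 23.7, 20.9 and 20.4 CPM in CF, a 3.00-fold lower level on day 9 than on day 2 in WT and 1.76-fold in CF. CKS1B, which also helps to mark the inhibitor p27 for degradation, had 139.8, 118, 95 and 71.6 CPM in WT and 145, 123, 109 and 108 CPM in CF. The CF libraries were above the WT libraries for CKS1B on all 4 days when scaled by total UMIs, but not on day 2 and 7 with TMM factors (a log2 difference of -0.0119 on day 7, and nearer to 0 on day 2), by a ratio of 1.04 (1.01 to 1.06) on day 2 and 1.51 (1.46 to 1.57) on day 9. It was the only gene of the 43 whose interval lay above a ratio of 1 on day 2, 5, 7 and 9 alike with the total UMIs as scale. CKS1B was 1.95-fold lower on day 9 than on day 2 in WT and 1.34-fold in CF, under the 2-fold limit used here.

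The next genes shape the mitotic chromosome. CENPF, a large protein of the kinetochore and nuclear matrix, had 69.4, 71.7, 20.9 and 0.472 CPM in WT and 34.1, 17.5, 2.97 and 1.20 CPM in CF. On the log2(CPM + 1) scale, on which folds were called here and which understates changes near 1 CPM, it had the largest difference over the course in both genotypes, -5.58 in WT and -4.00 in CF. It was 147-fold lower on day 9 in WT (40 UMIs against 7957) and 28.4-fold lower in CF (60 against 3488). TOP2A, the topoisomerase that untangles sister DNA, had 48.4, 45.4, 14.5 and 0.955 CPM in WT and 21.2, 14.0, 2.27 and 1.88 CPM in CF. MKI67, the Ki-67 protein that coats mitotic chromosomes and is used to stain cycling cells, had 28.5, 22.0, 7.11 and 0.330 CPM in WT and 12.1, 6.06, 1.44 and 0.320 CPM in CF. For TOP2A and MKI67 the WT and CF courses crossed or met at the end: on day 7 CF held 15.6% (12.3 to 19.7) and 20.2% (14.9 to 27.0) of the WT level, while on day 9 CF over WT stood at 1.97 (1.45 to 2.68) for TOP2A and 0.969 (0.490 to 1.85) for MKI67.

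SMC4, a core subunit of condensin, behaved otherwise. It had 122, 128, 102 and 85.5 CPM in WT and 72.2, 67.1, 96.8 and 96.9 CPM in CF. In WT its highest level was on day 5 and its lowest on day 9, while in CF its 2 highest levels were on day 7 and 9. CF was below WT on day 2 and 5, near it on day 7 and above it on day 9, with ratios of 0.590 (0.574 to 0.607), 0.526 (0.508 to 0.543), 0.951 (0.913 to 0.990) and 1.13 (1.09 to 1.18). The interval of SMC4 on day 9 lay above 1 with total UMIs and with DESeq2 size factors, but not with TMM factors. Day 9 to day 2 was 0.698 (0.679 to 0.718) in WT and 1.34 (1.29 to 1.39) in CF, which made SMC4 the only one of the 43 genes higher at the end than at the start in CF.

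**Figure D2:**
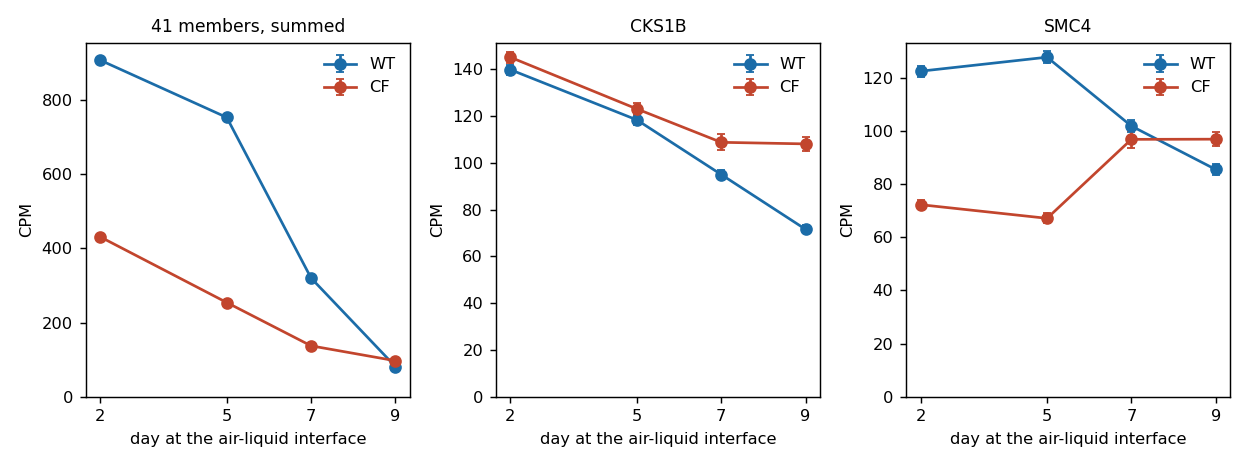
Summed level of the other 41 genes (left), CKS1B (middle) and SMC4 (right) by day at the ALI in CPM, WT in blue and CF in red, with exact 95% Poisson intervals for counting error, many smaller than the points. The 41 genes drop from 907 to 81.5 CPM in WT and from 431 to 97.1 CPM in CF, while CKS1B stays above 70 CPM and SMC4 above 67 CPM in every library.

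Kinetochore genes build the plate by which a chromosome holds on to spindle microtubules. SPC24, a subunit of the NDC80 complex, had 56.5, 42.6, 19.3 and 3.17 CPM in WT and 26.5, 15.0, 8.26 and 5.20 CPM in CF. NDC80, the subunit that grips the microtubule, had 11.5, 8.54, 3.06 and 0.118 CPM in WT and 4.05, 2.55, 0.691 and 0.180 CPM in CF. CENPE, a kinesin motor that moves chromosomes to the spindle equator, had 27.4, 27.3, 11.4 and 1.24 CPM in WT and 12.5, 7.65, 5.18 and 2.90 CPM in CF. All 3 were highest on day 2 of WT and lower on each later day in both genotypes, although CENPE was nearly level from day 2 to day 5 in WT. The fold to day 9 was 17.8 for SPC24, 97.7 for NDC80 and 22.1 for CENPE in WT, and 5.09, 22.5 and 4.30 in CF. On day 9 SPC24 and CENPE were higher in CF, with ratios of 1.64 (1.38 to 1.95) and 2.34 (1.81 to 3.04).

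The spindle checkpoint holds a cell in mitosis until all chromosomes are attached, and the anaphase-promoting complex then releases it. UBE2C, the ubiquitin-conjugating enzyme of that complex, had 70.3, 49.7, 21.6 and 1.64 CPM in WT and 30.9, 14.7, 3.83 and 1.78 CPM in CF. CDC20, its activator, had 15.8, 13.5, 5.47 and 0.519 CPM in WT and 6.54, 3.13, 2.71 and 0.640 CPM in CF. TTK, the checkpoint kinase also named MPS1, had 5.55, 3.90, 1.82 and 0.0590 CPM in WT and 1.82, 1.12, 0.345 and 0.0200 CPM in CF. UBE2C was 42.9-fold lower on day 9 than on day 2 in WT and 17.4-fold lower in CF, and CDC20 was 30.4-fold and 10.2-fold lower. TTK was near the limit of counting at the end, with 5 UMIs in WT, 1.06% (0.344 to 2.49) of its day 2 level, and with 1 UMI in CF, 1.1% (0.0277 to 6.21) of it. UBE2C and CDCA3 were the 2 genes of the list already at least 2-fold lower on day 5 than on day 2 in CF.

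The chromosomal passenger complex corrects wrong attachments and later directs the cleavage of the cell. AURKB, its kinase, had 22.5, 14.2, 4.85 and 0.201 CPM in WT and 7.81, 3.65, 0.518 and 0.0800 CPM in CF. BIRC5, or survivin, had 31.0, 28.7, 12.1 and 0.944 CPM in WT and 13.6, 6.84, 3.14 and 1.48 CPM in CF. CDCA8, or borealin, had 12.8, 10.3, 5.18 and 2.85 CPM in WT and 9.19, 6.80, 4.46 and 4.62 CPM in CF. The 3 subunits of 1 complex differed in how far they went down: on day 9 WT retained 0.891% (0.518 to 1.43) of the day 2 level of AURKB, 3.04% (2.41 to 3.8) of BIRC5 and 22.3% (19.4 to 25.6) of CDCA8. In CF the shares retained were 1.02% (0.278 to 2.63), 10.9% (8.50 to 13.8) and 50.3% (43.4 to 58.1). CDCA8 was less than 2-fold lower in CF than in WT on day 2, 5 and 7, whereas AURKB and BIRC5 were at least 2-fold lower on these days.

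Spindle genes make up the largest role, with 13 genes. TPX2, which activates the kinase AURKA and nucleates microtubules, had 38.3, 28.7, 10.3 and 0.920 CPM in WT and 15.0, 7.26, 2.68 and 1.0 CPM in CF. KIF11, the kinesin that pushes the spindle poles apart, had 26.8, 17.9, 8.20 and 2.42 CPM in WT and 12.0, 7.56, 2.73 and 1.70 CPM in CF. NUSAP1, a protein that bundles spindle microtubules near chromosomes, had 23.6, 22.7, 9.05 and 1.04 CPM in WT and 9.13, 7.08, 3.74 and 1.66 CPM in CF. HMMR, a spindle protein also known as a hyaluronan receptor, had 23.3, 18.6, 7.67 and 1.37 CPM in WT and 9.5, 5.61, 2.91 and 1.70 CPM in CF. These 4 genes, together with DLGAP5 and CKAP2L, were at least 2-fold lower in CF than in WT on day 2, 5 and 7. DLGAP5, which stabilizes kinetochore fibres, had 13.6, 9.86, 3.62 and 0.236 CPM in WT and 5.46, 2.77, 0.806 and 0.280 CPM in CF. CKAP2L, a spindle pole protein, had 7.05, 6.28, 2.24 and 0.201 CPM in WT and 2.76, 1.64, 0.432 and 0.10 CPM in CF. For DLGAP5 and CKAP2L the level on day 9 rested on 20 and 17 UMIs in WT, and in CF on 14 and 5.

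CKAP2, a microtubule-stabilizing protein, had 23.5, 24.9, 12.7 and 10.6 CPM in WT and 16.3, 13.6, 10.8 and 9.98 CPM in CF. PSRC1, which promotes spindle assembly, had 4.14, 3.61, 2.17 and 1.60 CPM in WT and 3.37, 2.49, 2.82 and 2.14 CPM in CF. These 2 changed less than the rest of the role: CKAP2 was 2.23-fold lower on day 9 than on day 2 in WT and 1.63-fold in CF, and PSRC1 was 2.58-fold and 1.58-fold lower. On the log2(CPM + 1) scale PSRC1 differed by -0.98 in WT and stayed just inside the 2-fold limit, while CKAP2 differed by -1.09 and passed it. PSRC1 and CKS1B were the 2 genes whose interval for CF over WT lay above 1 on day 7, both with the total UMIs as scale and neither with TMM or DESeq2 factors.

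Genes of cytokinesis complete the list. KIF20B, a kinesin of the midzone and midbody, had 31.7, 26.4, 13.7 and 7.36 CPM in WT and 20.7, 15.1, 11.8 and 8.78 CPM in CF. ANLN, or anillin, the scaffold of the contractile ring, had 24.9, 17.4, 9.41 and 8.98 CPM in WT and 6.59, 4.03, 5.44 and 5.96 CPM in CF. Both kept part of their level at the end of the course in WT, 23.2% (21.3 to 25.3) for KIF20B and 36.0% (33.2 to 39.0) for ANLN. In CF, ANLN was lowest on day 5 and then higher again, and its day 9 level was 0.905 (0.787 to 1.04) times that of day 2, an interval that holds 1. ANLN had the largest difference of the list between the genotypes on day 2, with CF at 26.4% (24.3 to 28.8) of WT, and that gap was smaller on day 9, at 66.4% (57.9 to 76.0).

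The 13 remaining genes were CDC25C, the phosphatase that activates CDK1, the chromatin genes NCAPD2 and CDCA2, the kinetochore genes NUF2 and CENPA, the checkpoint kinase BUB1, the spindle genes AURKA, GTSE1, TACC3, KIF2C and NEK2, and KIF23 and ECT2 of cytokinesis. Each had between 1.27 and 18.9 CPM in WT on day 2 and between 0.0354 and 3.13 CPM on day 9. In CF the range was 0.635 to 14.9 CPM on day 2 and 0.0400 to 4.74 CPM on day 9. CDC25C, with a mean of 0.553 CPM over the libraries, was the only one of the 43 below the mean of 1 CPM that was required before a 2-fold difference was counted, which left 42 genes. All 43 genes were found in a RefSeq gene table of the ferret, in which NCAPD2, BUB1, KIF11, DLGAP5, GTSE1, NEK2 and ECT2 share positions with a neighbouring gene, so the split of reads between neighbours is uncertain for these 7. Of 27912 genes, 11973 met that limit.

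Differences of at least 2-fold were counted on the log2(CPM + 1) scale, with no test. Over the whole course in WT, 39 of the 42 genes were at least 2-fold lower on day 9 than on day 2, where 5.97% of all tested genes were. The 3 exceptions were CKS1B, SMC4 and PSRC1. The median of the log2 difference was -3.0 over the list and 0.12 over all tested genes. Between day 2 and day 5 none of the 42 was 2-fold lower in WT (1.44% of all genes) and the median was -0.29. From day 5 to day 7, 27 genes were 2-fold lower (0.651%), with a median of -1.14, and from day 7 to day 9, 31 genes were (1.15%), with a median of -1.51. By sign alone, all 43 genes were at their lowest on day 9 in WT and 37 were lower at every step, but these counts were not made over all tested genes. The other 6 were CDC25C, CENPF, CKAP2, CKS2, NEK2 and SMC4, and for CENPF, CKAP2 and SMC4 the interval of day 5 over day 2 lay above 1.

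In CF, 32 of the 42 genes were at least 2-fold lower on day 9 than on day 2, against 3.26% of all tested genes. CKS1B, CKS2, SMC4, NCAPD2, CDCA8, PSRC1, CKAP2, GTSE1, ANLN and ECT2 were not. The median was -1.84, and 0.16 over all tested genes. The steps were more even than in WT, with medians of -0.65, -0.71 and -0.48. At least 2-fold lower were 2 genes on day 5 against day 2 (0.551% of all genes), 12 on day 7 against day 5 (0.518%) and 3 on day 9 against day 7 (0.15%), namely CCNB1, CDCA3 and CDC20. By sign alone, 39 genes in CF were at their lowest on day 9 and 38 were lower at every step, all but ANLN, CDCA8, ECT2, PSRC1 and SMC4. The interval of day 9 over day 7 held 1 for 15 of the 43 genes. The number of the other 41 genes under 1 CPM went from 0, 0 and 1 to 23 in WT and from 1, 2 and 12 to 19 in CF. No count of these kinds was made over all tested genes. Leaving out the classes that the authors named proliferating removes cells named in part for these genes, so a smaller decline follows from the choice. Without them the log2 ratio of day 9 to day 2 of the summed level was -1.02 in WT and -0.51 in CF, against -2.29 and -1.10 with all cells. In the ductal class alone, which holds different clusters in each genotype, it was -0.47 in WT and -1.03 in CF, and 22 WT genes were at least 2-fold lower, against 4.42% of all tested genes.

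The genotypes were compared on each day. On day 2, 27 of the 42 genes were at least 2-fold lower in CF than in WT, where 4.71% of all tested genes were, and none was 2-fold higher (4.58% of all genes). On day 5, 34 were lower (5.18%) and none higher (2.71%), and on day 7, 23 were lower (3.64%) and none higher (5.31%). On day 9 none was 2-fold lower (3.99%) or higher (3.88%). On that day 23 genes of the list in WT and 19 in CF were under 1 CPM. A gene under 1 CPM in both libraries cannot be called on this scale, so the lack of calls does not show equal levels. By plain ratio of CPM, CCNB2, CENPF and CENPE were more than 2-fold higher in CF on day 9. TTK, AURKB and CKAP2L were at least 2-fold lower by that ratio, and several of these genes had few UMIs. The median log2 difference of CF minus WT was -1.10, -1.43, -1.08 and 0.12 over the list, and -0.01, -0.05, 0.12 and 0.07 over all tested genes. Each day had its own pair of libraries, which the comparisons over the course share. Counting intervals put 42, 42 and 38 of the 43 genes below a ratio of 1 on day 2, 5 and 7, where 41.9%, 44.8% and 26.1% of all tested genes lay below 1, and 1, 1 and 2 above it (39.2%, 31.1% and 48.3%). On day 9, 18 of the 43 genes lay above 1, no larger a share than the 45.1% of all tested genes. Among them were CCNB2, TOP2A, CENPF, SPC24, CENPE and BIRC5. The 3 genes CDK1, KIF11 and ANLN lay below 1 (28.9% of all tested genes), and the interval of 22 held 1. With TMM and DESeq2 factors 14 and 15 genes lay above 1 on day 9 and 6 and 6 below. The shares of all tested genes were not taken with these factors.

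By role, the share of genes at least 2-fold lower in CF was as high on day 5 as on day 2 and 7, or higher, in each of the 7 roles. On day 5 it was 6 of 7 tested genes of the kinase engine, 4 of 6 of chromosome structure, 5 of 5 at the kinetochore, 4 of 4 of checkpoint and anaphase, 2 of 3 in the chromosomal passenger complex, 10 of 13 at the spindle and 3 of 4 in cytokinesis. On day 7 it was 5 of 7, 3 of 6, 4 of 5, 3 of 4, 2 of 3, 6 of 13 and 0 of 4. On these days 5.18% and 3.64% of all tested genes were called lower. The cytokinesis genes had the median nearest to 0 of the 7 roles on day 2 and on day 7, at -0.89 and -0.54. In all, 21 genes were at least 2-fold lower in CF on day 2, 5 and 7 alike, against 2.2% of all tested genes. The counts changed with the treatment of low genes. With a pseudocount of 5 CPM, 9, 18 and 5 of the 42 genes were lower on day 2, 5 and 7 (2.14%, 2.34% and 1.83% of all tested genes). Among the 14 genes of the list with a mean of at least 10 CPM, 9, 10 and 8 were lower (2.74%, 3.1% and 2.35% of the 7712 genes at that mean). Over the course from day 2 to 9, 34 genes in WT and 19 in CF were lower with the pseudocount of 5 CPM (3.63% and 1.61%), and 12 and 9 of the 14 (4.72% and 2.52%).

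The difference between the genotypes was also taken within some of the cells. The ductal class and the classes named proliferating were set in part by these genes and hold different clusters in each genotype, so these values describe the classes. On day 2, 174 of the 338 CF cells with at least 3 UMIs of the 41 genes were named ductal, against 197 of 1042 in WT. Within the ductal class alone, the log2 ratio of CF to WT for the summed level was 0.12 on day 2 and -0.44 on day 9, the opposite direction from all cells, and -0.67 and -0.80 on day 5 and 7. No gene was then 2-fold lower in CF on day 2 (4.29% of all tested genes in these cells), 6 were on day 5 (7.43%) and 1 on day 9 (15.9%), and CCNB1, TOP2A and CENPF had log2 differences of 0.72, 0.53 and 0.64. Without the classes named proliferating the summed ratio was -0.17, -0.72 and -0.19 on day 2, 5 and 7, with 1, 20 and 9 genes at least 2-fold lower (4.07%, 5.24% and 3.42% of all tested genes). Thinning each cell to 3000 UMIs kept the direction on every day, at -0.81, -0.91, -0.32 and 0.42. It left 14 genes at least 2-fold lower on day 7, and 15 in a second draw in which 4.32% of all tested genes were. On day 9 it gave 1 lower and 2 higher genes, and none in the second draw (4.43% and 5.36%).

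Genes around the same pathway were examined as lists. Their counts of genes at least 2-fold lower stand against 4.71%, 5.18%, 3.64% and 3.99% of all tested genes for CF against WT on day 2, 5, 7 and 9, and against 5.97% in WT and 3.26% in CF for day 9 against day 2. Of 55 tested other mitotic genes, which code for further kinesins, centromere and spindle proteins, 21, 22, 13 and 1 were at least 2-fold lower in CF on day 2, 5, 7 and 9, and 47 in WT and 31 in CF were lower on day 9 than on day 2. Their medians were -0.85, -0.77, -0.59 and 0.06 between genotypes and -1.93 and -1.05 over the course. Of 47 S phase genes, such as the MCM helicase and the DNA polymerase clamp PCNA, 23, 12, 8 and 0 were lower in CF, and 42 in WT and 25 in CF over the course, with medians of -2.23 and -1.12. S phase genes summed to 1704, 1068, 775 and 541 CPM in WT and 959, 722, 582 and 529 CPM in CF. Their WT level on day 5 was 62.7% of that on day 2, where the 41 G2/M genes still had 0.830 (0.822 to 0.838) times it. MCM2, a subunit of the replication helicase, had 14.9, 4.62, 1.96 and 0.271 CPM in WT and 6.11, 2.63, 0.403 and 0.280 CPM in CF. PCNA had 136, 104, 74.9 and 63.1 CPM in WT and 64.5, 53.7, 50.6 and 56.3 CPM in CF.

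The regulators are read against the same shares of all tested genes, 4.71%, 5.18%, 3.64% and 3.99% between genotypes and 5.97% and 3.26% over the course. The 16 subunits and partners of the anaphase-promoting complex summed to 713 to 808 CPM over all 8 libraries, and FBXO5, an inhibitor of the complex, was the only one at least 2-fold lower over the course, in WT, with 6.71, 5.35, 2.78 and 1.01 CPM in WT and 3.03, 2.97, 2.10 and 1.96 CPM in CF. Of 12 brakes of mitotic entry and phosphatases, 4 in WT and 1 in CF were lower on day 9, and 2, 1, 0 and 0 were lower in CF than in WT. WEE1, the kinase that holds CDK1 inactive, had 10.2, 8.33, 5.48 and 4.25 CPM in WT and 4.12, 2.62, 2.82 and 2.86 CPM in CF. Of 15 tested cell cycle transcription factors, 6 were lower over the course in each genotype, and 2, 2, 2 and 0 were lower in CF than in WT. FOXM1, a factor that activates G2/M promoters, had 5.04, 3.08, 1.13 and 0.0826 CPM in WT and 2.45, 0.853, 0.259 and 0.0400 CPM in CF. MYBL2, or B-MYB, which acts with it, had 32.0, 15.0, 6.63 and 1.49 CPM in WT and 18.0, 7.04, 2.62 and 1.56 CPM in CF.

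A lower level in a library can stand for fewer cells with these transcripts or for fewer transcripts in each, which summed values cannot tell apart. Cells were brought to 3000 UMIs by random thinning, those below that depth were dropped, and cells with at least 3 UMIs of the 41 genes were counted. They were 17.0% (16.0 to 17.9) of 6144 cells on day 2, 7.65% (6.94 to 8.41) of 5176 on day 5, 3.05% (2.57 to 3.59) of 4561 on day 7 and 0.398% (0.246 to 0.607) of 5280 on day 9 in WT. In CF they were 7.58% (6.82 to 8.39) of 4460, 3.40% (2.75 to 4.16) of 2705, 0.836% (0.402 to 1.53) of 1196 and 0.662% (0.371 to 1.09) of 2265. At full depth the same limit was passed by 50.3%, 32.9%, 22.2% and 14.1% in WT, against 47.5%, 38.4%, 32.4% and 28.2% in CF, which exceeded WT from day 5 on. CF cells were deeper, so only the thinned shares were read. By single genes, 42, 41, 33 and 9 of the 43 were found in a lower share of CF than of WT cells on day 2, 5, 7 and 9, and 33 in a higher share on day 9. A second draw, thinned over all genes, gave 41, 40, 34 and 15 of the 42 tested genes lower, where 49.9%, 54.7%, 38.9% and 40.3% of all tested genes were, and 1, 2, 8 and 26 higher (50.1%, 45.3%, 61.0% and 59.7%), so the day 9 count moved with the draw. A CENPF UMI was found in 8.45%, 4.62%, 1.80% and 0.0379% of cells in WT, against 4.1%, 1.74%, 0.334% and 0.0883% in CF, a UBE2C UMI in 8.97%, 4.39%, 1.78% and 0.473% of cells in WT, against 4.48%, 2.03%, 0.418% and 0.530% in CF, and a CCNB1 UMI in 3.76%, 2.18%, 0.921% and 0.0379% of cells in WT, against 1.52%, 0.628%, 0.251% and 0.0442% in CF. No class of cells could be taken to lack these transcripts, so the share that free RNA adds was not measured.

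These cells were picked by the same UMIs that make up their level, so the levels in them are a description. The level of the 41 genes was 3603, 5052 and 4213 CPM in the 1042, 396 and 139 WT cells of day 2, 5 and 7, and 2833, 3365 and 4061 CPM in the 338, 92 and 10 CF cells of the same days. All other cells had 190.7, 129 and 98.9 CPM in WT and 162, 102 and 93.9 CPM in CF. On day 9 the 21 WT and 15 CF cells had only 1261 and 1325 CPM, and 12 and 9 of them held exactly 3 UMIs. The cells with at least 3 UMIs carried 83.4%, 85.1%, 70.7% and 7.38% of the UMIs of the 41 genes in WT and 66.1%, 61.8%, 31.9% and 8.48% in CF. The remaining level on day 9 was thus spread thinly over cells with at most 2 of these UMIs at this depth.

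The mix of the genes inside these cells varied little between the 5 libraries with at least 90 of them, which were WT day 2, 5 and 7 and CF day 2 and 5. CENPF made up 8.61% to 10.8% of the UMIs of the 41 genes, UBE2C 7.12% to 8.41% and TOP2A 5.82% to 7.48%. KIF23 was the steadiest, with a highest share 1.07 times the lowest, and among the 41 genes ANLN and CDC25C varied most, by 1.64 and 1.84 times. The lowest share of CDC25C, in CF on day 5, rested on only 13 UMIs, so its range may be counting error. The cells were picked by the same UMIs, so these shares are a description.

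Cells with at least 3 UMIs fell into different deposited classes by day. The classes had been named by the authors by correlation with pancreas references and, for the classes called proliferating, with cell cycle genes that include CCNA2, CCNB1, CCNB2, CDC20 and CDCA2 of this list, so their high level of these genes follows in part from the naming. In WT on day 2, 615 of the 1042 cells were proliferating acinar, 197 ductal, 177 acinar and 39 proliferating ductal. On day 5, 201 of 396 were ductal and 192 proliferating ductal, and the whole WT library of that day held no cell named proliferating acinar. In CF the class proliferating ductal was not used, and on day 2 174 of 338 cells were ductal and 151 proliferating acinar. On day 9, 13 of the 21 WT cells were ductal and 13 of the 15 CF cells centroacinar. These classes held 39.7% of all WT cells and 78.6% of all CF cells of that day.

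Summed over the 43 genes, the level in proliferating acinar cells was 5261 CPM in 650 WT cells and 5691 CPM in 154 CF cells of day 2. These cells were 10.4% of the WT library and held 61.4% of its UMIs of the list, and 3.42% of the CF library with 37.5% of its UMIs. Proliferating ductal cells had 8519.5 CPM in 199 WT cells of day 5 and 7626 CPM in 58 of day 7. Acinar cells of WT day 2 had 1331 CPM. Ductal cells had 436, 679, 444 and 314 CPM in WT and 472, 427, 256 and 232 CPM in CF. Centroacinar cells had 252, 291 and 189 CPM in WT on day 5, 7 and 9 and 311, 275, 329 and 313 CPM in CF, so that the level with all 43 genes was higher in CF on each day compared. The clusters were made for each genotype apart, so the cells of a class come from different clusters in WT and CF. Centroacinar progenitors had 285, 192, 183 and 166 CPM in WT and 335, 276, 249 and 251 CPM in CF. With CKS1B and SMC4 left out, the progenitors had 144 (138 to 150.5), 74.5, 67.2 and 60.2 CPM in WT. In CF the progenitors then had 127 (121.5 to 133), 109, 89.4 and 87.3 CPM. CF was thus below WT on day 2 and above it on day 5, 7 and 9. Without CKS1B and SMC4, centroacinar cells had 83.6 (78.8 to 88.6), 107 (102 to 113) and 67.0 (64.4 to 69.7) CPM in WT on day 5, 7 and 9. On these days the CF cells of the class had 89.4 (86.4 to 92.5), 98.5 (94.3 to 102.8) and 95 (92.0 to 98.1) CPM, so CF was above WT on day 9, and the intervals overlapped on day 5 and 7.

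The deposited clusters, made for each genotype apart, placed the 41 genes in a few groups of cells. Of 39 WT and 29 CF clusters with at least 50 cells, 5 and 3 had at least 500 CPM. These held 79.9% of the UMIs of the 41 genes in 7.2% of the cells in WT and 66.0% in 8.89% in CF, and the median cluster had 112 and 106 CPM. The clusters were made from these genes among others, so the pattern is a description. In WT, cluster 27, proliferating ductal, had 7518 CPM in 298 cells, 66.8% of them from day 5. Clusters 28 and 25, proliferating acinar, had 6047 and 3753 CPM and were 96.5% and 99.2% from day 2. Cluster 31, named ductal, had 2677 CPM, 63.7% of its cells from day 5, and cluster 26, named acinar, had 958 CPM and came to 98.8% from day 2. In CF, cluster 24, proliferating acinar, had 5334 CPM in 200 cells, 77% of them from day 2, followed by the ductal clusters 10 and 9 at 696 and 589 CPM.

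Most of the genes peaked in the same cluster of a genotype. In WT, 37 of the 43 genes had their highest level in cluster 27, and in CF 42 of 43 in cluster 24. Both clusters were made from these genes among others, and how many of all genes peaked there was not counted. CENPF reached 830.4 CPM in WT cluster 27 against a median of 1.59 CPM over clusters, and 585 against 1.22 CPM in CF cluster 24. SMC4 was again apart, at its highest in WT cluster 20 (348 CPM) and CF cluster 23 (273 CPM), both of shallow cells with a median of 3397.5 and 3246 UMIs. Across clusters, the correlation of log2(CPM + 1) of a gene with the summed other genes was 0.71 to 0.98 in WT and 0.64 to 0.97 in CF for the 41 genes. For CKS1B it was 0.92 and 0.75, and for SMC4 0.58 and 0.48. Clusters share libraries and no such correlation was taken over all genes, so these are descriptions over 39 and 29 points.

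**Figure D3:**
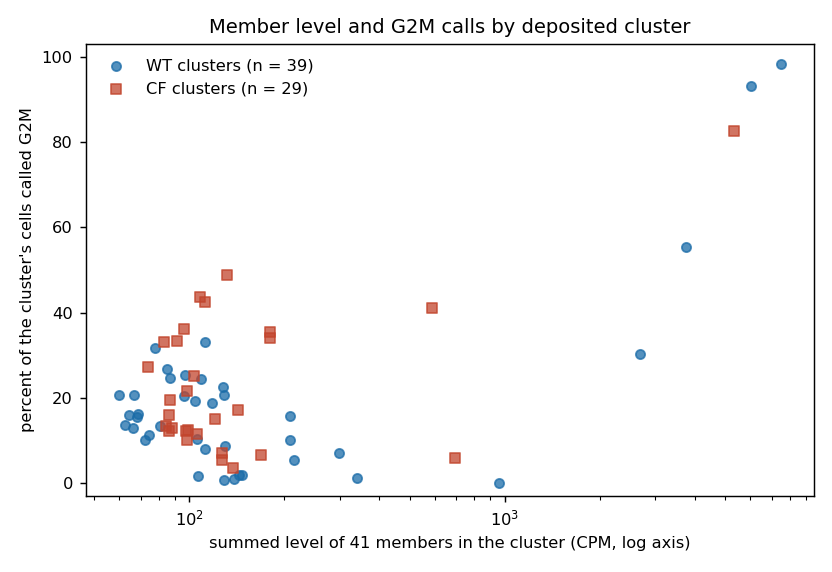
Each point is a deposited cluster with at least 50 cells, placed by the summed level of the 41 genes in CPM (log axis) and by the percent of its cells called G2M, WT as circles and CF as squares. Only a few clusters exceed 500 CPM, some of them called S rather than G2M, and among clusters under 100 CPM the share called G2M runs from 10.1% to 36.1%.

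The WT clusters differed in SOX2, a transcription factor of foregut epithelium that had 68.5 to 115 CPM in the WT libraries and at most 0.0864 CPM in CF, and the high clusters fell on both sides. A limit of 10 CPM, set after the values had been seen, put 12 of 41 WT clusters on the low side. The proliferating ductal cluster 27 and cluster 31 had 3.97 and 1.40 CPM of SOX2, and the proliferating acinar clusters 28 and 25 had 205 and 153 CPM. The low clusters held 14.3%, 33.8%, 27.5% and 27.9% of WT cells on day 2, 5, 7 and 9 and 9.79%, 93.5%, 76.6% and 37.2% of the UMIs of the 41 genes. In the low clusters 11.3% (9.33 to 13.6), 21.1% (19.2 to 23.0), 8.65% (7.17 to 10.3) and 0.617% (0.283 to 1.17) of cells had at least 3 UMIs of the 41 genes. In the high clusters the shares were 17.9% (16.9 to 19.0), 0.503% (0.293 to 0.805), 0.881% (0.591 to 1.26) and 0.314% (0.162 to 0.548).

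Cells with at least 3 UMIs were thus on both sides on day 2, with the larger share on the high side, and a larger share of low than of high cells on day 5 and 7. The level of the 41 genes moved the same way, at 692, 1534, 709.9 and 99.5 CPM in the low clusters and 938, 90.8, 114 and 73.6 CPM in the high ones. Against the WT cells of low clusters alone, the log2 ratio of the summed level of CF to WT was -0.48, -2.02, -1.40 and 0.25, and 1 gene was at least 2-fold lower in CF on day 2 (1.92% of all tested genes), 40 on day 5 (3.4%) and 35 on day 7 (2.73%), and 1 was higher on day 9 (3.22%).

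**Figure D4:**
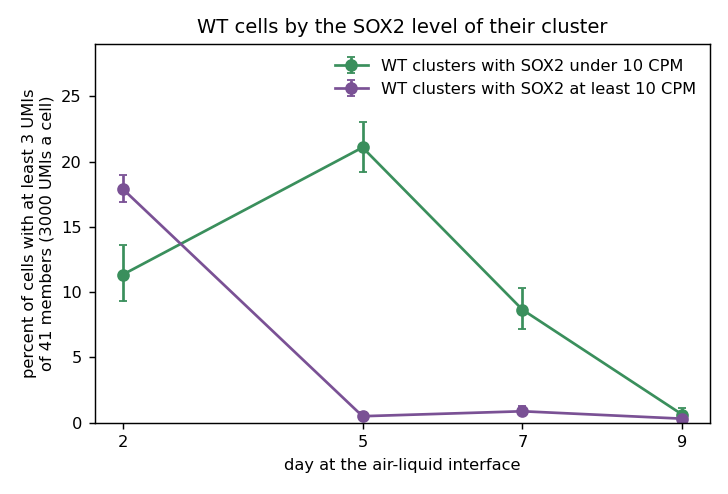
Percent of WT cells with at least 3 UMIs of the 41 genes at 3000 UMIs a cell, by day, for clusters under 10 CPM of SOX2 (green) and the other clusters (purple), with 95% Clopper-Pearson intervals. The purple points drop from 17.9% on day 2 to 0.503% on day 5, while the green points go from 11.3% to 21.1% and come down to 0.617% on day 9.

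The deposited cell table calls each cell G1, S or G2M in a column named Phase. In all 32945 cells the call equals a rule on the deposited S and G2M scores: the higher score decides, and a cell with both below 0 is G1. The genes behind the scores were not given in the sources used here. The current G2/M list of Seurat, the software that the authors used, has 54 genes and holds 41 of the 44 symbols, all but CCNA2, CCNB1 and SPC24, so most of the list cannot serve as an independent check of the call. The share called G2M was 9.61% (8.89 to 10.4), 9.76% (8.98 to 10.6), 21.2% (20.0 to 22.4) and 26.1% (25.0 to 27.3) in WT on day 2, 5, 7 and 9. In CF it was 13.8% (12.8 to 14.8), 14.9% (13.6 to 16.3), 33.1% (30.8 to 35.5) and 35.3% (33.4 to 37.2). The calls went up over the course while the transcripts of the list went down, and they were higher in CF on each day, where the transcripts were lower on day 2, 5 and 7.

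**Figure D5:**
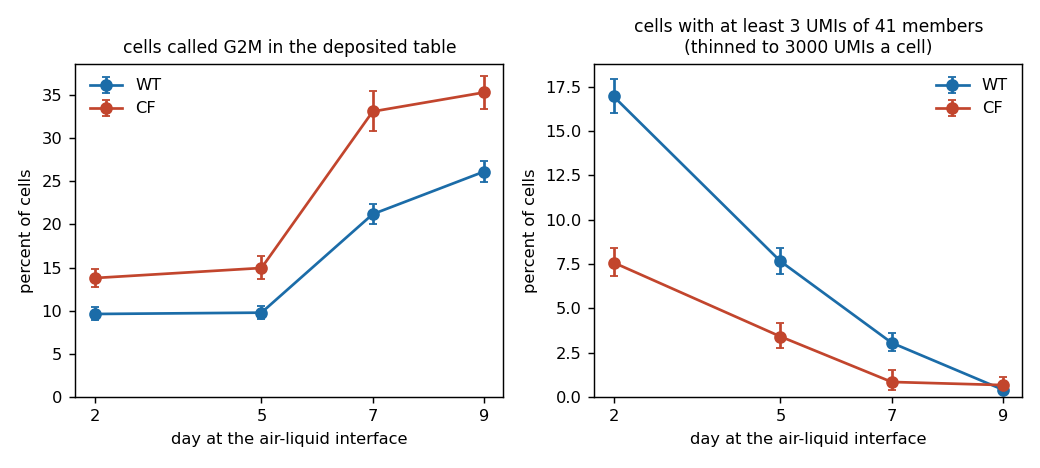
Percent of retained cells called G2M in the deposited table (left) and percent of cells with at least 3 UMIs of the 41 genes after thinning to 3000 UMIs (right), by day at the ALI, WT in blue and CF in red, with 95% Clopper-Pearson intervals. The left curves climb from 9.61% to 26.1% in WT and from 13.8% to 35.3% in CF, and the right curves drop from 17.0% to 0.398% and from 7.58% to 0.662%.

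The call meant different things early and late. On day 2 and 5 of WT, cells called G2M had 5179 and 4951 CPM of the 41 genes, 41 times (40.1 to 41.9) and 50.4 times (49.1 to 51.8) the level of cells called G1. On day 7 and 9 they had 1086 and 126 CPM, 16.6 times (15.9 to 17.4) and 2.37 times (2.22 to 2.53) that of G1. In CF the levels were 1860.5, 1059, 257 and 143 CPM and the ratios 17.4 (16.9 to 17.9), 13.9 (13.3 to 14.5), 3.69 (3.42 to 4.0) and 2.28 (2.12 to 2.46). The level in cells called G1 moved far less, from 126 to 53.3 CPM in WT and from 107 to 62.5 CPM in CF. The 47 S phase genes counted differed by 4.28, 3.69, 1.82 and 1.22 times between the calls in WT and by 2.32, 1.74, 1.18 and 1.15 times in CF. That contrast is partly set by the call too, since most of the S phase genes are in the S list of Seurat and a G1 call needs an S score below 0. The median G2M score of cells called G2M was 0.395 on day 2 of WT, 0.0514 on day 5 and at most 0.0297 in the other 6 libraries.

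The same was seen in single cells. Thinned to 3000 UMIs, 91.4%, 52.9%, 9.34% and 1.09% of the WT cells called G2M had at least 3 UMIs of the 41 genes, and 33.7%, 16.3%, 1.31% and 1.77% of the CF cells did. None of these UMIs was present in 3.08%, 24.7%, 60.3% and 69.5% of the cells called G2M in WT and in 31.9%, 54.3%, 68.4% and 67.7% in CF. At full depth 0.836% to 22.1% of the WT cells and 5.32% to 28.8% of the CF cells called G2M had none. Read from the other side, the cells with at least 3 UMIs were called G2M in 51.2%, 65.4%, 64.0% and 71.4% of cases in WT and S in 43.9%, 30.1%, 33.1% and 28.6%. In CF they were called G2M in 60.7%, 70.7%, 50% and 93.3% and S in 33.7%, 26.1%, 40.0% and 6.67%. The late shares rest on few cells. Those called G2M were 15 of 21 in WT on day 9, and 5 of 10 and 14 of 15 in CF on day 7 and 9. The share of cells that free RNA moves across the limit of the scores was not measured.

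CCNA2, CCNB1 and SPC24, the genes outside the Seurat list, bear on the call more directly. CCNB1 was higher in cells called G2M than in cells called G1 by 414 (287 to 619), 409 (267 to 663), 155 (78.0 to 360) and 17.2 (2.65 to 725) times in WT on day 2, 5, 7 and 9. In CF the ratio was 131 (87.7 to 206), 210 (89.0 to 651) and 69.5 (12.0 to 2788), and on day 9 there were 10 UMIs in cells called G2M and 0 in cells called G1. CCNA2 had ratios of 199, 375, 114 and 3.45 in WT and 164, 546, 23.2 and 4.68 in CF, and on day 9 both intervals held 1, at 0.277 to 181 and 0.523 to 221. SPC24 had 16.7, 29.1, 10.8 and 1.42 (1.01 to 2.00) in WT and 8.05, 6.72, 3.17 and 0.984 (0.711 to 1.36) in CF. For each of the 3 genes the cells called G2M stood well apart on day 2 and 5, and by day 9 their level in those cells was at most 4.82 CPM.

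CKS1B and SMC4 had the smallest ratios of the 43 genes on day 2 and on day 5 in both genotypes. The ratio of G2M to G1 was 3.09, 2.74, 2.11 and 1.97 for CKS1B in WT and 1.62, 1.60, 1.43 and 1.49 in CF, and 3.73, 2.61, 2.16 and 2.37 for SMC4 in WT and 2.49, 2.25, 1.67 and 2.26 in CF. On day 2 of WT, CKS1B and SMC4 were at 93.0 and 82.0 CPM in cells called G1, against 0.415 CPM for CCNB1 and 0.400 CPM for CCNA2 in the same cells.

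Clusters gave the same picture as libraries. WT clusters 27 and 28 were called G2M in 98.3% and 93.3% of cells and CF cluster 24 in 82.5%. WT cluster 26, at 958 CPM, was called S in 100% of its 343 cells, and CF cluster 10, at 696 CPM, in 92.6%. Below 100 CPM, 15 WT clusters were called G2M in 10.1% to 31.7% of cells and 13 CF clusters in 10.2% to 36.1%. CF cluster 11, centroacinar and mostly from day 9, was called G2M in 48.9% of its cells at 132 CPM, while CF cluster 9, at 589 CPM, was called so in 41.1%.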

How the data were processed

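The series holds 8 droplet RNA libraries of ferret pancreatic duct cultures, 1 for each genotype (WT, CF) and day (2, 5, 7 and 9). The authors aligned reads to the ferret assembly ASM1176430v1.1 with Cell Ranger 5.0.1 and analysed cells in R 4.1.2 with Seurat, and the deposited matrices hold their UMI counts, not normalized. The authors' cell table lists 32945 of 44243 barcodes as retained after their filters on genes, mitochondrial share and doublets. Retained cells had at least 501 genes and at most 19.9917% mitochondrial UMIs. The table gives the mitochondrial percent, the authors' S and G2M scores, Phase, clusters and class names, and these deposited columns were used as they are. The authors' lineage scores and normalized values were not used.

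UMI counts of the retained cells were summed by library, class and cluster and divided by the total, per 1e+06 UMIs (CPM). Differences were taken as log2(CPM + 1) for the 11973 genes with a mean of at least 1 CPM over the libraries, and called at 2-fold. The pseudocount of 1 understates changes of low genes. With 1 library a group no test was run. Intervals at 95% (Poisson, conditional binomial, Clopper-Pearson) cover counting error. Depth was 34735952 to 114585136 UMIs a library. For shares of cells each cell was thinned to 3000 UMIs, or 6000 as an alternative. Class and cluster levels used at least 50 cells. The counting was 3′ and not divided by length, so the order of genes by CPM, used to choose genes and to arrange the heat map, is not an order of abundance. Tools were Python 3.11.15, numpy 2.4.6, scipy 1.17.1, pandas 2.3.3 and matplotlib 3.10.9, with R 4.3.3, edgeR 4.0.16 and DESeq2 1.42.0 for scaling factors only and Seurat 5.3.0 for its G2/M gene list. The counting scripts were tested on simulated data.

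The genes and lists were chosen with earlier results of these data known. Values in every library are given for the 2 genes of each role with the highest mean, the 3 with the largest and the 3 with the smallest difference from day 2 to day 9 in each genotype, genes at least 2-fold apart between CF and WT on 3 or more days, and genes outside the Seurat list, 30 in all. The others are given by their range. Alternatives covered the scaling, the cells counted, the pseudocount, the filter and the thinning.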

Additional observations from a re-analysis of the deposited data

Results flagged for a closer look

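SMC4, the condensin subunit, moved in opposite directions from day 2 to day 9 in the libraries of the 2 genotypes. Its log2 difference was -0.51 in WT, from 122 to 85.5 CPM, and 0.42 in CF, from 72.2 to 96.9 CPM. With 1 library for each genotype and day the difference between the genotypes was not tested.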

How the results depend on the processing

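With 1 library for each genotype and day, no replicate could be left out and there was no test within a day. Within a day no paired analysis was possible, because the labels give no replicate numbers and each genotype and day had 1 library. A fit over the 8 libraries with day as a block, which would take the days as replicates, was not run. The promoter motifs were not run. The precision is limited by the animals pooled in 1 library, and on day 9 by counts, since 23 WT and 19 CF genes of the other 41 were under 1 CPM. Log2 ratios of the level summed over the 43 genes, CF to WT, were -0.85, -1.17, -0.59 and 0.34 on day 2, 5, 7 and 9. They became -0.91, -1.14, -0.80 and 0.21 with TMM factors, -0.88, -1.11, -0.75 and 0.24 with DESeq2 size factors, -0.88, -1.15, -0.64 and 0.29 with mitochondrial genes left out of the total, and -0.81, -0.91, -0.32 and 0.42 after thinning to 3000 UMIs. Over all deposited barcodes the ratio was -0.90 on day 2. In the ductal class alone the ratios were 0.12, -0.67, -0.80 and -0.44, without the classes named proliferating -0.17, -0.72 and -0.19 on day 2, 5 and 7, and against WT cells of clusters under 10 CPM of SOX2 -0.48, -2.02, -1.40 and 0.25. Without CKS1B and SMC4, a choice made after seeing the data, they were -1.07, -1.57, -1.22 and 0.25. TMM factors shifted every gene by -0.21 on day 7, -0.13 on day 9, -0.20 over the WT course and -0.27 over the CF course, and SMC4 kept its directions over the course.

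The log2 ratio of day 9 to day 2, -2.29 in WT and -1.10 in CF, became -2.49 and -1.37 with TMM factors, -2.46 and -1.34 with DESeq2 size factors, -2.05 and -0.82 after thinning, -2.36 and -1.15 over all barcodes, -0.47 and -1.03 in the ductal class, -1.02 and -0.51 without the classes named proliferating, -1.84 in WT clusters under 10 CPM of SOX2, and -3.48 and -2.15 without CKS1B and SMC4. The direction held in each of these.

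The counts of genes at least 2-fold lower in CF on day 2, 5 and 7 were 27, 34 and 23 (4.71%, 5.18% and 3.64% of all tested genes). They became 9, 18 and 5 with a pseudocount of 5 CPM (2.14%, 2.34% and 1.83%). With a mean of at least 10 CPM, which leaves fewer genes to count, they became 9, 10 and 8 (2.74%, 3.1% and 2.35%). The ductal class gave 0 on day 2 (4.29%) and 6 on day 5 (7.43%). The cells without the classes named proliferating gave 1, 20 and 9 (4.07%, 5.24% and 3.42% of all tested genes). The WT clusters under 10 CPM of SOX2 gave 1 on day 2 (1.92%) and 35 on day 7 (2.73%). Thinning gave 14 on day 7, where a second draw gave 15 (4.32%). On day 9, where no gene was called, thinning gave 1 lower and 2 higher and a second draw none (4.43% and 5.36%), the ductal class 1 lower (15.9%) and the SOX2 split 1 higher (3.22%). The counts over the course were 39 in WT and 32 in CF (5.97% and 3.26%). They became 12 and 9 with a mean of at least 10 CPM (4.72% and 2.52%). In CF the count was 19 with a pseudocount of 5 CPM (1.61%), and in WT it was 22 in the ductal class (4.42%).

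On all 42 tested genes, TMM factors turned the sign of CF minus WT for CKS1B on day 2 and 7 and for CDCA3, TPX2 and UBE2C on day 9, which were log2 differences of at most 0.19, and DESeq2 size factors turned none. For CF against WT, only CCNB1, CDK1, TOP2A, CENPF, CKS1B and SMC4 were run under every alternative, and for day 9 against day 2 all named genes were. Differences of at least 2-fold reversed in 2 of the alternatives. In the ductal class, CF minus WT on day 2 was 0.72 for CCNB1, 0.53 for TOP2A and 0.64 for CENPF, and day 9 minus day 2 in WT was 0.22 for CKAP2 and 0.32 for ANLN. Without the classes named proliferating CCNB1 was at 0.22 on day 2. The cause was not tested in any of these.

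The share of cells with at least 3 UMIs of all 43 genes was 24.9%, 16.1%, 9.03% and 5.13% in WT, against 14.3%, 8.21%, 7.86% and 8.30% in CF. It became 40.6%, 31.2%, 24.1% and 16.1% in WT and 31.0%, 21.8%, 24.2% and 24.6% in CF with at least 2 UMIs, and 14.4%, 6.84%, 2.94% and 0.549% in WT and 5.92%, 2.48%, 0.502% and 0.839% in CF with at least 5. Without thinning it was 82.4%, 78.1%, 70.6% and 57.0% in WT, against 84.3%, 87.5%, 68.8% and 78.3% in CF, and at 6000 UMIs 45.5%, 36.9%, 25.8% and 16.3% in WT and 36.9%, 26.1%, 28.7% and 27.2% in CF. Without CKS1B and SMC4 it was 17.0%, 7.65%, 3.05% and 0.398% in WT, against 7.58%, 3.40%, 0.836% and 0.662% in CF. The share of cells called G2M moved by less than its interval when cells under 3000 UMIs were left out.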

Other observations

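Of 3 regulators outside the list, PLK1 behaved differently from FOXM1 and MYBL2. PLK1, the Polo-like kinase that acts at entry into mitosis and is usually transcribed with the genes described above, had 17.8, 20.5, 16.8 and 15.9 CPM in WT on day 2, 5, 7 and 9 and 16.8, 16.9, 17.7 and 17.4 CPM in CF, so it did not share their decline in the libraries. Within the libraries it was higher in cells with at least 3 UMIs of the 41 genes, at 52.2 against 8.71 CPM in WT on day 2 and 45.9 against 13.6 CPM in CF. The ratio of such cells to the others was 5.99, 5.59, 4.96 and 1.26 in WT and 3.38, 3.37, 4.30 and 1.49 in CF, and on day 9 both intervals held 1, at 0.541 to 2.48 and 0.642 to 2.95. The other cells held 8.71 CPM on day 2 of WT and 15.8 CPM on day 9, and 13.6 and 17.4 CPM in CF. FOXM1 had 21.1 CPM in such cells of WT day 2 and 0.763 CPM in the others. MYBL2 had 94.9 against 15.2 CPM in the same library, and its ratio on day 9 of WT, among 21 cells, was 62.4 (39.7 to 95.3), against 6.41 (1.29 to 19.5) in CF, from 3 UMIs in 15 cells.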
